A study of Mus musculus with 6 samples.

Results

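The genes described here are 10 ER chaperones and stress response factors of the unfolded protein response (UPR) and the integrated stress response (ISR): Ern1, Xbp1, Dnajb9, Hspa5, Hsp90b1, Pdia4, Atf4, Ddit3, Trib3 and Asns. They were taken by symbol from a table of 13709 gene rows, and all 10 were among the 13594 genes that passed the low-count filter. RNA-Seq libraries came from sorted CD4+YFP+CD25+ regulatory T cells (Tregs), 3 samples per genotype, of C57BL/6 mice per the labels that were 2 weeks old per the study's methods. WT mice carried Foxp3Cre alone and KO mice were Foxp3Cre Zfp335 fl/fl, so that Cre and YFP, both made from the Foxp3 locus, were present in the 2 genotypes. Excision of Zfp335, a zinc finger transcription factor, was therefore aimed at cells that express or have expressed Foxp3. Excision in other cells was not tested here. The labels disagreed on whether the tissue was lymph node or spleen, and whether a sample was 1 mouse or a pool was not stated, so p-values measure the spread between these samples only. The Treg markers Foxp3, Il2ra, Ctla4, Ikzf2, Cd4 and Cd3e were all at or above 317 CPM (the count of a gene scaled to a common library size) in every sample.

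Proteins that enter the endoplasmic reticulum (ER) are folded there by chaperones, and misfolded protein activates sensors in the ER membrane. Ern1 (IRE1) splices the Xbp1 mRNA so that it encodes an active transcription factor, Atf6 is cut in the Golgi to release another, and Eif2ak3 (PERK) phosphorylates the translation factor eIF2. The same phosphorylation by kinases that sense amino acid shortage, double-stranded RNA or heme shortage is the ISR, in which most translation slows while that of Atf4 mRNA rises. Atf4 then drives genes for amino acid supply, tRNA charging and, through Ddit3 (CHOP), cell death. Cells that divide or secrete heavily, such as activated lymphocytes and plasma cells, are known to use parts of both programs. Gene counts show the amount of each mRNA and not its splicing or translation, so the active forms of Xbp1 and Atf4 were not measured.

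The deleted gene itself, Zfp335, was at 101, 94.3 and 103 CPM in WT replicates 1 to 3, against 37.0, 37.9 and 40.2 CPM in KO replicates 1 to 3. The genotypes did not overlap (log2 fold change -1.37, SE 0.07, edgeR adjusted p = 2.14e-05). Library totals ran from 32032631 to 40728419 counts. WT replicate 3 stood apart from the other WT samples. For each pair of samples, the squared count difference of a gene was scaled by its expected counts. The median over genes was divided by that of sampling noise alone, so the ratio is one of squared differences. This ratio was 5.27 to 6.07 among KO samples and 9.98 between WT replicates 1 and 2. With WT replicate 3 it was 23.6 and 24.7. Results that rest on this sample are therefore given with and without it. It was picked out from these same data, so p-values without it do not cover the spread that it added among WT samples.

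Of the 10 genes, 4 rose in KO Tregs (Asns, Ern1, Hsp90b1 and Hspa5), 0 fell, and 6 did not pass the test. Passing the test meant more than a 1.5-fold change together with p under 0.05 and adjusted p under 0.1. No gene of the 10 was lower at an unadjusted p under 0.05 in edgeR, and DESeq2 also called 4 higher and 0 lower. By the edgeR rule 24.4% of all genes tested were called, 11.9% higher and 12.5% lower. The same 4 genes were those whose KO values all lay above all WT values, as did those of 3560 of 13594 genes tested. In one direction or the other, 53.8% of all genes tested had no overlap. Without WT replicate 3, 7 of the 10 genes were called higher and 0 lower, with Xbp1, Trib3 and Dnajb9 added, against 13.6% of all genes called higher and 13.2% lower in that fit. The median log2 fold change of the 10 genes was 0.36 with all samples and 0.74 without WT replicate 3, beside -0.04 and -0.02 over all genes.

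**Figure D1:**
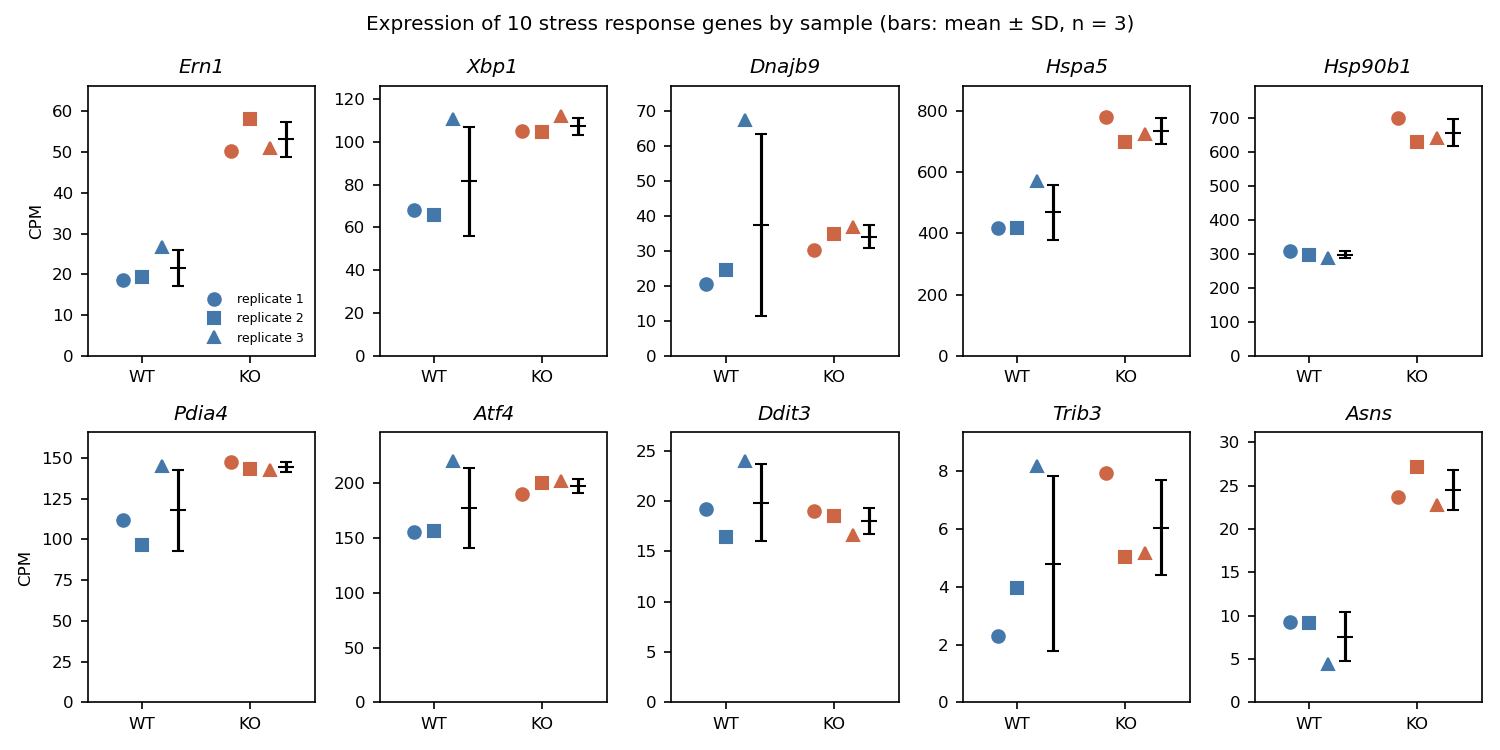
CPM (y axis, linear, from 0) of each of the 10 genes in the 3 WT samples (blue) and 3 KO samples (orange); circles, squares and triangles are replicates 1, 2 and 3, and black marks give the mean ± SD. KO values are tight for most genes, whereas the blue triangle, WT replicate 3, is the highest WT value for 8 of the 10 genes and lies above every KO sample for Atf4, Ddit3, Dnajb9 and Trib3. Over the 13594 genes tested, WT replicate 3 is the highest WT value for 5330 and at or above every KO sample for 6019.

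Ern1, the sensor and the RNase that splices Xbp1, was at 18.6, 19.5 and 26.6 CPM in WT replicates 1 to 3 and at 50.2, 58.1 and 51.0 CPM in KO replicates 1 to 3. Every KO sample was well above every WT sample, from a mean of 21.6 ± 4.37 to 53.1 ± 4.34 CPM (SD, n = 3 each). This gave a log2 fold change of 1.30 (SE 0.15, edgeR adjusted p = 0.000506), or 1.48 when WT replicate 3 was left out.

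The mRNA that Ern1 acts on showed a different layout. Xbp1, the transcription factor of this branch, was at 68.2, 65.6 and 111 CPM in WT replicates 1 to 3 and at 105, 105 and 112 CPM in KO replicates 1 to 3. WT replicates 1 and 2 were below all KO samples, and WT replicate 3 lay among them. With all samples the log2 fold change was 0.40 (95% interval -0.04 to 0.83, edgeR adjusted p = 0.138). Without WT replicate 3 it was 0.68 (edgeR adjusted p = 7.26e-07) and passed the threshold. It did not pass without WT replicate 1 (0.28, edgeR adjusted p = 0.331) or without WT replicate 2 (0.26, edgeR adjusted p = 0.338).

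Dnajb9 (ERdj4), an ER co-chaperone encoded by a known target of spliced Xbp1, was at 20.6, 24.5 and 67.5 CPM in WT replicates 1 to 3 and at 30.4, 34.9 and 37.0 CPM in KO replicates 1 to 3. The highest value of all 6 samples was thus that of WT replicate 3, and the other WT samples were the lowest. The direction of the difference turned with this sample. The log2 fold change was -0.14 (95% interval -1.08 to 0.81, edgeR adjusted p = 0.820) with it and 0.59 (edgeR adjusted p = 0.00033) without it. It was -0.43 without WT replicate 1 and -0.37 without WT replicate 2, and was called in neither.

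Hspa5 (BiP), the Hsp70 chaperone of the ER that also holds the sensors inactive, was at 416, 419 and 572 CPM in WT replicates 1 to 3 and at 781, 698 and 724 CPM in KO replicates 1 to 3. The genotypes did not overlap, and WT replicate 3 was the WT sample nearest to the KO samples. The mean went from 469 ± 89.0 to 734 ± 42.4 CPM (SD, n = 3 each), a log2 fold change of 0.65 (SE 0.13, edgeR adjusted p = 0.00611). This call sat close to the fold threshold: the log2 fold change was 0.81 without WT replicate 3, and 0.57 without WT replicate 1 or without WT replicate 2, where it was not called. Rabepk overlaps Hspa5, but with means of 16.9 (WT) and 17.98 CPM (KO) it was far below it.

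Hsp90b1 (Grp94), the Hsp90 of the ER and the chaperone of many integrins and Toll-like receptors, was at 308, 297 and 287 CPM in WT replicates 1 to 3 and at 701, 630.0 and 639.9 CPM in KO replicates 1 to 3. It was the member with the smallest spread among WT samples (coefficient of variation 3.50%), and here WT replicate 3 was the lowest sample. The log2 fold change of 1.14 (SE 0.07, edgeR adjusted p = 3.84e-05) was 1.12 without WT replicate 3.

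Pdia4 (ERp72), a protein disulfide isomerase, was at 112, 96.5 and 145 CPM in WT replicates 1 to 3 and at 148, 143 and 142 CPM in KO replicates 1 to 3. As for Xbp1, WT replicate 3 was within the KO range and the other WT samples were below it. The log2 fold change was 0.29 (95% interval -0.03 to 0.61, edgeR adjusted p = 0.131). Without WT replicate 3 it was 0.47 (edgeR adjusted p = 5.49e-05), under the fold threshold.

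Atf4, the transcription factor at the center of the ISR, was at 155, 157 and 219.9 CPM in WT replicates 1 to 3 and at 190.0, 201 and 202 CPM in KO replicates 1 to 3. WT replicate 3 was again the highest sample, and WT replicates 1 and 2 were the lowest. The log2 fold change was 0.15 (95% interval -0.16 to 0.47, edgeR adjusted p = 0.405). Without WT replicate 3 it was 0.33 (95% interval 0.21 to 0.46, edgeR adjusted p = 0.000162), which was not called because it was under the fold threshold.

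Ddit3 (CHOP), a transcription factor of late ER stress that favors cell death, was at 19.2, 16.4 and 24.0 CPM in WT replicates 1 to 3 and at 19.0, 18.5 and 16.6 CPM in KO replicates 1 to 3. The samples of the genotypes were interleaved, and this was the only one of the 10 genes for which the KO samples were not all above WT replicates 1 and 2. The log2 fold change was -0.14 (95% interval -0.49 to 0.21, edgeR adjusted p = 0.509) and 0.01 (95% interval -0.23 to 0.26) without WT replicate 3. Ddit3 overlaps Mbd6, which fell from 196 to 119 CPM, and Mars1, which went from 60.9 to 82.4 CPM without passing the test. Whether the counting used strand was not stated, and the share of Ddit3 counts that belongs to its neighbors was not tested.

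Trib3, a pseudokinase that is induced by Atf4 and Ddit3 and restrains Akt signaling, was the lowest of the 10 genes, at 2.28, 3.96 and 8.17 CPM in WT replicates 1 to 3 and at 7.94, 5.03 and 5.16 CPM in KO replicates 1 to 3. WT replicate 3 was above every KO sample and the other WT samples were below them. The log2 fold change was 0.33 (95% interval -0.69 to 1.35, edgeR adjusted p = 0.592) over 84 to 290 counts per sample. It was 0.95 (edgeR adjusted p = 0.0119) on leaving out WT replicate 3, which passed the test, and -0.0056 on leaving out WT replicate 1.

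Asns, the enzyme that makes asparagine and a standard readout of Atf4 activity, had the largest log2 fold change of the 10 genes. It was at 9.26, 9.16 and 4.39 CPM in WT replicates 1 to 3 and at 23.7, 27.2 and 22.8 CPM in KO replicates 1 to 3. No KO sample came near a WT sample, and WT replicate 3 was the lowest of all, opposite to its place for Atf4 and Trib3. The mean went from 7.60 ± 2.79 to 24.6 ± 2.31 CPM (SD, n = 3 each), with a log2 fold change of 1.69 (SE 0.27, edgeR adjusted p = 0.00209) that was 1.41 without WT replicate 3.

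**Figure D2:**
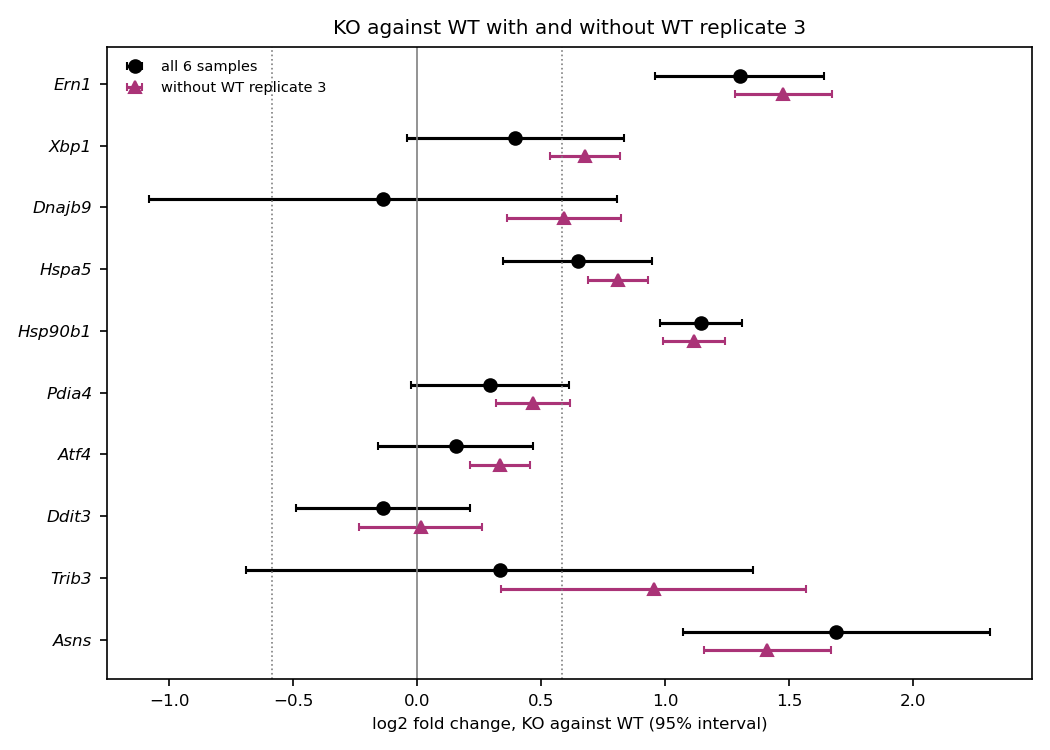
Fitted log2 fold change of KO against WT (x axis) for the 10 genes with its 95% interval, from all 6 samples (black circles) and without WT replicate 3 (purple triangles); dotted lines mark a fold change of 1.5 either way. Leaving the sample out narrowed every interval, moved Xbp1, Dnajb9 and Trib3 past the dotted line and left Ddit3 at 0.01.

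Expressed per kilobase of exon, so that genes can be compared, Hspa5, Atf4, Hsp90b1 and Pdia4 were the most abundant of the 10 mRNAs. In WT samples Hspa5 was at 111 CPM per kilobase, followed by Atf4 at 75.2, Hsp90b1 at 73.7 and Pdia4 at 49.1. The sensor Ern1, at 2.64, and Asns, at 2.78, were near Trib3, at 2.26, at the bottom of this scale. In KO samples Hsp90b1 reached 163 CPM per kilobase and stood above Atf4, at 83.7, whereas in WT samples these 2 were within their spread of each other. Asns reached 8.98 and Ern1 6.50 CPM per kilobase.

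The ratio of WT replicate 3 to the mean of WT replicates 1 and 2 differed widely within the group. It was 2.99 for Dnajb9, 2.62 for Trib3, 1.66 for Xbp1 and between 1.35 and 1.41 for Atf4, Ern1, Pdia4, Hspa5 and Ddit3. For Hsp90b1 it was 0.949 and for Asns 0.476. Some other stress genes, picked after their values were seen, were also far from the other WT samples. Ppp1r15a (GADD34), the phosphatase subunit that ends the ISR, was at 158, 155 and 706 CPM in WT replicates 1 to 3 and at 315, 298 and 301 CPM in KO replicates 1 to 3. Atf3, a transcription factor induced early in many stresses, was at 0.896, 0.426 and 5.26 CPM in WT replicates 1 to 3 and at 5.47, 4.18 and 6.52 CPM in KO replicates 1 to 3. For both, WT replicates 1 and 2 were below all KO samples, and neither was called with all samples.

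The promoters were searched for sequences through which the pathway is known to act, and 4 of the 10 genes held at least 1 of them: Hspa5, Hsp90b1, Asns and Trib3. The ER stress response element (ERSE) was searched as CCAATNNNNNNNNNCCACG on both strands of a window from 250 bases before to 50 bases after each RefSeq gene start (GRCm38.p6), and all 10 genes had such a window. It occurred in 37 of 27025 genes (0.137%), and among the 10 in Hspa5 and Hsp90b1, the chaperones that rose. The matches of these genes and of 5 more ER genes are printed 5′ to 3′ on the matching strand, with the match in capitals, because they carry the same letters with different changes in KO Tregs.
Hspa5 (chr2:34772020-34772048, + strand): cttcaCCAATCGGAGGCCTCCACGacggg
Hsp90b1 (chr10:86705528-86705556, + strand): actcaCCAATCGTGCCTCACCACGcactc
Hsp90b1 (chr10:86705633-86705661, - strand): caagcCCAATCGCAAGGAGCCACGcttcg
Creld2 (chr15:88819515-88819543, - strand): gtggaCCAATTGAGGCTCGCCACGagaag
Calr (chr8:84847070-84847098, + strand): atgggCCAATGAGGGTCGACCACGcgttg
Pdia6 (chr12:17266486-17266514, + strand): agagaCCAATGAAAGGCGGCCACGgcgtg
Canx (chr11:50325795-50325823, - strand): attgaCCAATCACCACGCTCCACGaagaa
Derl3 (chr10:75893237-75893265, - strand): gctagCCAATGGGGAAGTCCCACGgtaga
The match lies 65 to 47 bases before the start of Hspa5, and those of Hsp90b1 lie 107 to 89 and 212 to 194 bases before its start. Of 20 tested genes with an ERSE, 7 were called higher (35%) and 3 lower (15%), against 11.9% and 12.5% of all genes tested. Their median log2 fold change was 0.36, beside -0.03 over all genes with a window. Of 8 ER chaperone and folding genes with an ERSE, 6 were called higher, and their median log2 fold change was 0.72. Of 19 such genes without it, 5 were called higher and 1 lower, with a median of 0.20. The letters were not accompanied by a rise everywhere: 10 genes with an ERSE outside the ER lists had a median of -0.25, with 1 called higher and 2 lower, and Derl3 fell. The 5 ER genes beside the members were named after their values were seen, and Derl3 was low, at 0.821 to 3.59 CPM over the samples. The ER genes with an ERSE that are not printed were not called: Dnajc3, Ero1b and Syvn1 (log2 fold changes 0.58, 0.35 and 0.02). Dnajc3 fell just short of the fold threshold (edgeR adjusted p = 0.000493), at 110 to 122 CPM in WT and 172 to 178 CPM in KO samples. Ero1b was also under the fold threshold (edgeR adjusted p = 0.0408), and Syvn1 had edgeR adjusted p = 0.904.

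The composite site bound by Atf4 with C/EBP proteins (CARE) was searched by its core TGATGNAA in the same windows, which occurred in 1219 of the 27025 genes (4.51%). Among the 10 genes it was in Asns and Trib3, which differed in their calls, and these are shown with the tRNA synthetase gene Gars, which rose.
Asns (chr6:7693215-7693242, - strand): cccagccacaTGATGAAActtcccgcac
Trib3 (chr2:152344029-152344056, + strand): cccgcccggcTGATGTAAacctgagcta
Gars (chr6:55037961-55037988, - strand): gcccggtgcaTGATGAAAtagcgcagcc
The core was 23 to 16 bases before the start of Asns and 15 to 22 bases after that of Trib3. Among other synthetase genes that held it, Yars was called higher (log2 fold change 0.76), and Iars (0.31) and Tars (0.27) were not called. Of 328 genes tested that held it, 50 were called higher (15.2%) and 33 lower (10.1%), against 11.9% and 12.5% of all genes tested. Their median log2 fold change of -0.02 was close to that of all genes with a window, -0.03. The UPRE core TGACGTG, bound by spliced Xbp1 and Atf6, occurred in 601 genes (2.22%) and among the 10 in Hspa5. Of 333 tested genes that held the UPRE core, 48 were called higher (14.4%) and 29 lower (8.71%). None of these matches was tested for binding.

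**Figure D3:**
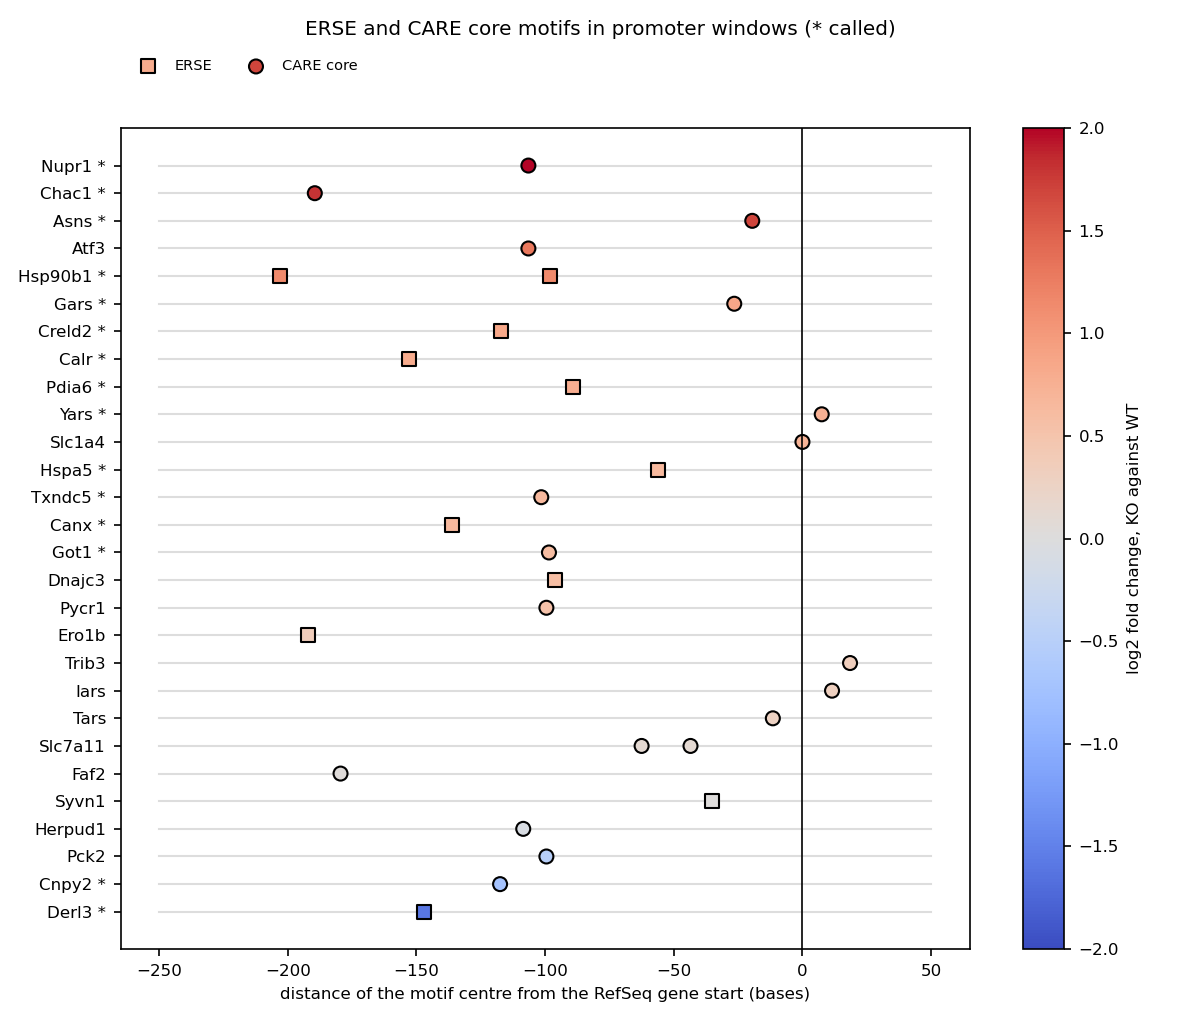
Distance of each ERSE (square) and CARE core (circle) from the RefSeq gene start (x axis, bases) in genes of the 10 and of the pathway lists (genes not tested and 1 other gene are not shown), ordered by fold change and colored by the log2 fold change of KO against WT; asterisks mark called genes. Most ERSE genes are red, with Derl3, at -1.59, the blue exception, and CARE genes span Nupr1, at 2.10, to Cnpy2, at -0.73.

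The 10 genes were then set beside fuller lists of the pathway. For comparison with the counts below, 11.9% of all genes tested were called higher and 12.5% lower. Of 15 sensors and transducers, 4 rose and 0 fell, and the median log2 fold change was 0.19. Without WT replicate 3 the numbers were 5, 0 and 0.32. With all samples, the genes that rose besides Ern1 were Atf6, Bak1 and, named after its values were seen, Eif2ak3. Eif2ak2 (PKR), also named afterwards, was added without WT replicate 3 (log2 fold change 0.62, against 0.16 with all samples). Atf6 was at 39.0, 40.0 and 47.3 CPM in WT replicates 1 to 3 and at 84.8, 89.5 and 86.6 CPM in KO replicates 1 to 3 (log2 fold change 1.05, SE 0.09, edgeR adjusted p = 0.000159). Eif2ak3 was at 34.6, 36.5 and 37.9 CPM in WT and at 63.3, 55.9 and 59.4 CPM in KO (log2 fold change 0.71, edgeR adjusted p = 0.000510). All 3 sensor mRNAs of the ER were therefore higher in every KO sample than in any WT sample, as were 3560 of all 13594 genes tested. Bak1, a pore-forming protein of cell death that also binds Ern1, went from 85.8 ± 11.0 to 180.1 ± 12.7 CPM (SD, n = 3 each; log2 fold change 1.07). It overlaps Ggnbp1, and Atf6 overlaps a predicted gene, so counts may be shared.

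Of 31 ER chaperones and folding enzymes listed, 30 were tested, of which 12 rose and 1 fell, with a median log2 fold change of 0.52. Without WT replicate 3 the numbers were also 12 and 1, and the median was 0.51. With the 4 members of this list left out, 10 of 26 rose and 1 fell, and the median was again 0.52. The summed level of the list was 3973 to 3990 CPM in the WT samples, WT replicate 3 included, and 5833 to 6165 CPM in the KO samples. The largest rises were those of Sdf2l1 (log2 fold change 1.29), a partner of Hspa5, Hsp90b1 and Manf (log2 fold change 1.06), a secreted ER protein that binds Hspa5. Sdf2l1 was at 19.9, 16.2 and 10.03 CPM in WT replicates 1 to 3 and at 39.3, 34.3 and 39.6 CPM in KO replicates 1 to 3. Cnpy2, a Saposin-like ER protein, fell by 0.73 on the log2 scale, from 32.0 ± 1.40 to 19.2 ± 1.48 CPM (SD, n = 3 each).

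The lists for ER-associated degradation and for transport into and out of the ER had lower medians than the folding list. Of 24 genes of ER-associated degradation, 1 rose (4.17%) and 2 fell (8.33%), with a median of 0.14. These shares were below those over all genes tested. The rise was that of Nploc4 (log2 fold change 0.75), a cofactor of the segregase Vcp, and Fam8a1 fell by 0.74 on the log2 scale, both without overlap between the genotypes. Derl3, also called lower, was at 2.91, 3.59 and 1.80 CPM in WT replicates 1 to 3 and at 0.821, 0.846 and 1.08 CPM in KO replicates 1 to 3. Of 40 genes of ER translocation and export, 4 rose (10%, against 11.9% of all genes tested) and 0 fell, with a median of 0.28. With no fold threshold, at edgeR adjusted p under 0.05, 22 of the 40 were higher and 0 lower. Over all 13594 genes tested, 2610 were higher and 2634 lower by that rule. Every KO sample was above every WT sample for 24 of the 40, as for 3560 of the 13594. Sec24d, a cargo-binding subunit of COPII vesicles, went from 10.9 ± 1.76 to 30.7 ± 0.977 CPM (SD, n = 3 each; fold change 2.83, edgeR adjusted p = 0.000162). Rpn2, of the oligosaccharyltransferase, and Ssr3, of the translocon, had log2 fold changes of 0.64 and 0.62.

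**Figure D4:**
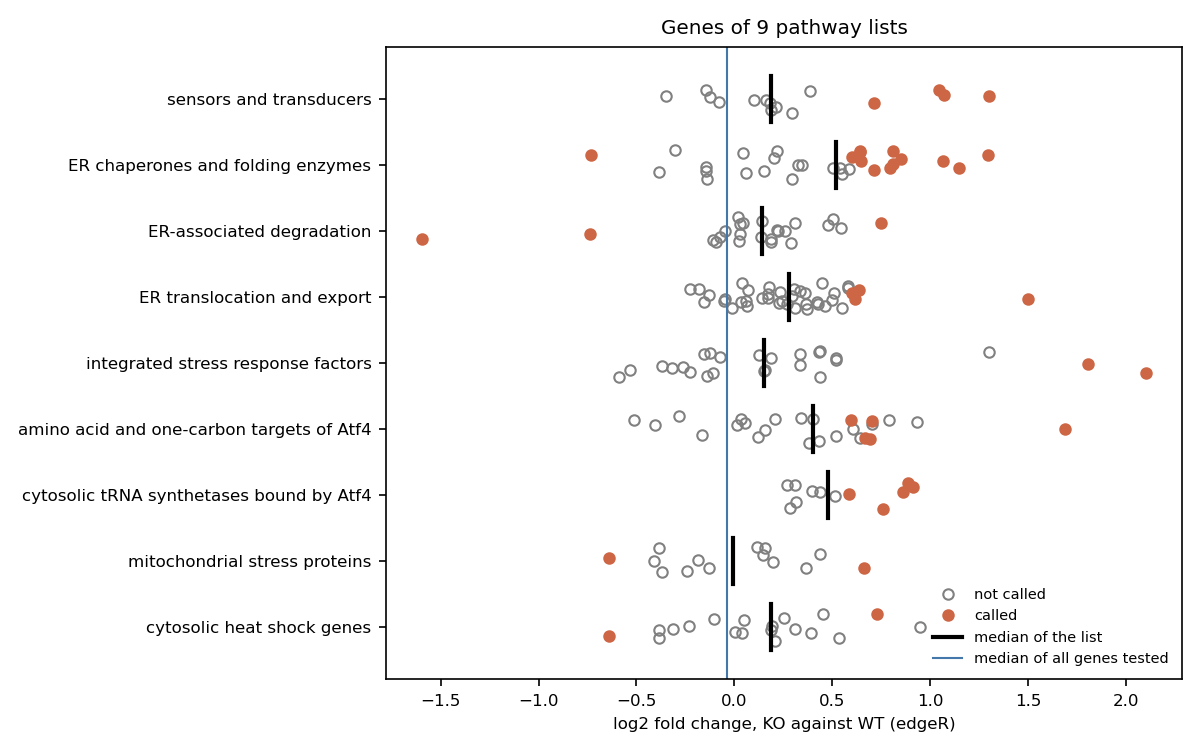
Log2 fold change of KO against WT (x axis) of each gene in 9 pathway lists; filled points passed the call rule, black bars are list medians and the blue line is the median of all genes, -0.04. The folding, amino acid and tRNA synthetase lists have medians of 0.52, 0.40 and 0.48, and the mitochondrial stress list has -0.01.

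Of 25 factors of the ISR, 2 rose (8%, against 11.9% of all genes tested) and 0 fell, with a median log2 fold change of 0.15. Without WT replicate 3 the numbers were 4, 0 and 0.26. The 2 that rose, Nupr1 and Chac1, were low: Nupr1 was at 0.109, 0.152 and 0.691 CPM in WT replicates 1 to 3 and at 1.12, 1.27 and 1.70 CPM in KO replicates 1 to 3, and Chac1 reached at most 0.647 CPM in any sample. They were named after their values were seen. No gene of this list was called higher without WT replicate 1 (1 lower, median 0.067), KO replicate 2 or KO replicate 3, when every sample had to reach 10 counts, or by glmTreat, a test against the 1.5-fold change itself. WT replicate 3 was at or above every KO sample for 13 of the 25 genes, compared with 6019 of 13594 genes tested.

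The amino acid and one-carbon targets of Atf4 gave another layout. Of 25 tested, 5 rose and 0 fell, with a median of 0.40, and the rises beside Asns included Mthfd2, a mitochondrial folate enzyme, and Slc7a5, the light chain of the large neutral amino acid transporter. Slc7a5 was at 104, 102 and 69.1 CPM in WT replicates 1 to 3 and at 148, 148 and 148 CPM in KO replicates 1 to 3 (log2 fold change 0.69, edgeR adjusted p = 0.00784). Mthfd2 went from 49.4 ± 8.58 to 80.3 ± 4.29 CPM (SD, n = 3 each; log2 fold change 0.70). In this list WT replicate 3 was the lowest WT sample for 16 of the 25 genes, compared with 5336 of 13594 genes tested. Without WT replicate 3 only Asns was still called, with a list median of 0.28. Slc7a5 and Mthfd2 then had log2 fold changes of 0.52 and 0.57, under the fold threshold.

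The 12 cytosolic tRNA synthetases whose genes Atf4 is known to bind were more uniform. All 12 were higher in every KO sample than in any WT sample, as were 3560 of all 13594 genes tested. Of the 12, 5 passed the call rule. The median log2 fold change was 0.48 with all samples and 0.39 without WT replicate 3. Wars was at 79.2, 77.5 and 86.5 CPM in WT replicates 1 to 3 and at 155, 149 and 154 CPM in KO replicates 1 to 3 (log2 fold change 0.91, SE 0.07). Aars and Gars had log2 fold changes of 0.89 and 0.86. Wars overlaps Wdr25 and Aars overlaps Ddx19b, and whether they share counts was not tested. CARE cores were found in 5 of the 8 synthetase genes with a window.

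Stress lists of other compartments were set beside these. With all samples, 7.14% of the mitochondrial and 5.26% of the heat shock genes were called in each direction, below the shares over all genes. Of 14 mitochondrial stress proteins tested, 1 rose and 1 fell, with a median of -0.01: the chaperonin Hspd1, which overlaps Hspe1, had a log2 fold change of 0.66, and the protease Htra2, which overlaps Loxl3 and Aup1, fell by 0.64 on the log2 scale. Of 19 cytosolic heat shock genes tested, 1 rose and 1 fell, with a median of 0.19. Hsp90aa1, the inducible cytosolic Hsp90, had a log2 fold change of 0.73, and Hsf1, the transcription factor of the heat shock response, fell by 0.64 on the log2 scale. Without WT replicate 3 this list had 3 genes higher and 0 lower and a median of 0.25, and Hsf1, at -0.57, was not called. Without WT replicate 1 its median was -0.0011.

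**Figure D5:**
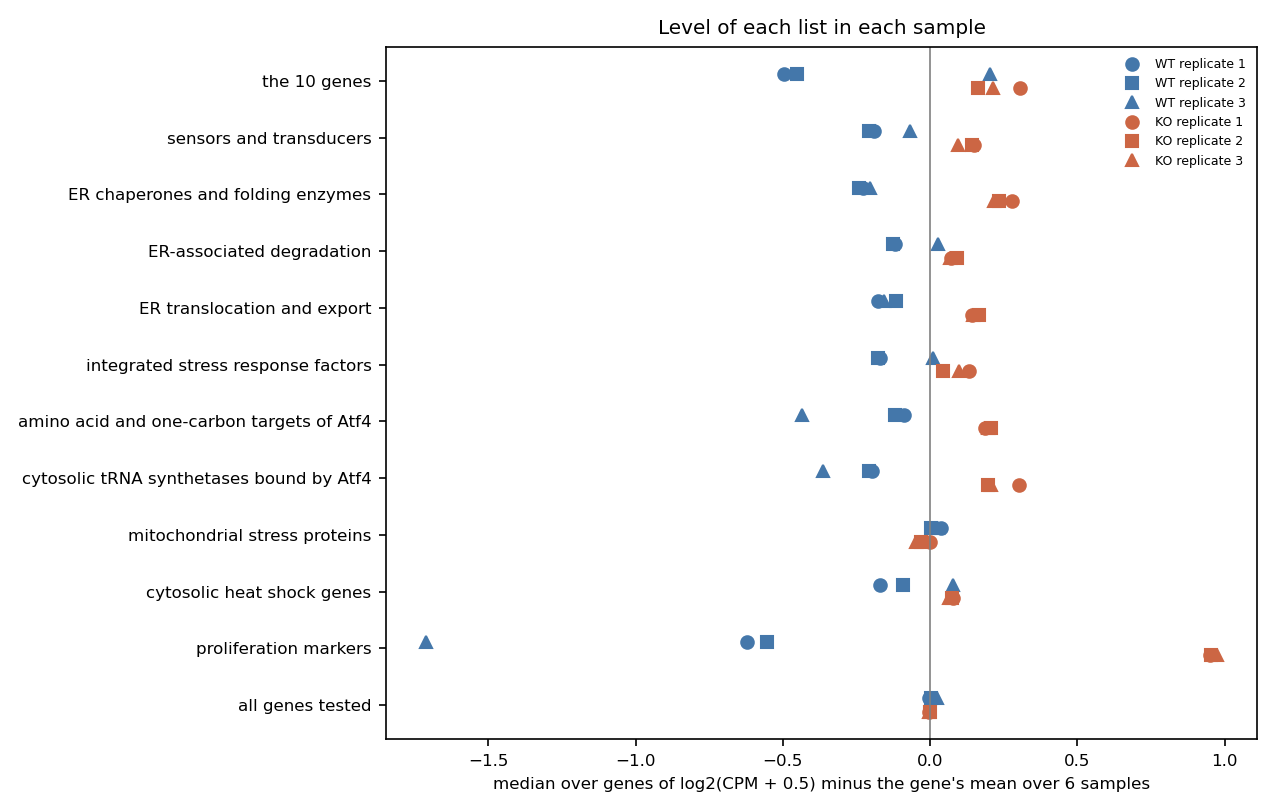
Level of each list in each sample (x axis), as the median over its genes of log2(CPM + 0.5) minus the mean of the gene over the 6 samples; WT samples are blue and KO samples orange, with replicates 1, 2 and 3 as circles, squares and triangles. WT replicate 3 lies among the KO samples for the 10 genes, with the other WT samples for ER chaperones, and below all samples for amino acid targets, tRNA synthetases and proliferation markers.

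Other measures moved with genotype and with WT replicate 3. All 15 proliferation markers rose in KO Tregs, with a median log2 fold change of 1.87. Summed over the 15, WT replicates 1 to 3 reached 1553, 1543 and 808 CPM and the KO samples 4267 to 4440 CPM, and WT replicate 3 was the lowest sample for all 15. WT replicate 3 was also the lowest sample for Asns and for the medians of the amino acid and synthetase lists, and not for Dnajb9, Trib3, Xbp1 or Atf4. In bulk samples, fewer cells of a type and less RNA per cell cannot be told apart, and the part of proliferation in these results was not tested.

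Markers of other cells that the sort could hold were also compared. Of 11 B cell and plasma cell markers, 10 were tested, 3 rose and 2 fell, and their sum was 454 to 726 CPM in WT and 202 to 212 CPM in KO samples, most of it Ighm, which fell. Jchain, a defining plasma cell gene, was at 0.109, 0.335 and 0.781 CPM in WT replicates 1 to 3 and at 1.29, 1.27 and 2.24 CPM in KO replicates 1 to 3, whereas Sdc1 was at 0.543 to 3.004 CPM in WT and 0.684 to 1.14 CPM in KO. Of 10 myeloid markers tested, 7 rose and 0 fell, and their sum was 17.1 to 29.4 CPM in WT and 58.8 to 67.3 CPM in KO samples, with S100a8 and S100a9 at 0 in all WT samples. In the study's single-cell data of younger mice, a Treg cluster named dysfunctional, larger in KO, also expressed S100a8 and S100a9 highly. Of 5 CD8 and NK cell markers, 3 rose, with sums of 12.9 to 19.1 and 27.0 to 28.9 CPM. No erythroid marker of 5 was called. Of the 6 Treg markers, Foxp3 and Ikzf2 fell (log2 fold changes -0.88 and -1.11), and Foxp3 was at -0.57 and not called without WT replicate 3. Of 13 mitochondrially encoded genes, 0 rose and 1 fell, with a median of -0.41. Without WT replicate 1, 1 rose and 5 fell, and without any other single sample none was called. The part of these cells and of RNA quality in the results was not tested.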

How the data were processed

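Per the study's methods, reads were aligned to mm10 with HISAT2 and quantified per gene. The file deposited by the authors holds raw whole-number counts, with genes in rows and the 6 samples in columns. The annotation and strand setting were not given in the sources used here. No row summed to less than 60, so rarely detected genes had been dropped before deposition. The totals of 32032631 to 40728419 counts put the floor, taken as 3 counts, at 0.0747 to 0.0913 CPM, which covers counting error only.

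The counts were fitted with edgeR 4.0.16 in R 4.3.3: filterByExpr at a minimum count of 10, TMM scaling, and the two-sided quasi-likelihood test of KO against WT without covariate, with Benjamini-Hochberg adjustment over all 13594 genes tested. The procedure was tested on simulated data. Calls required a fold change above 1.5, p under 0.05 and adjusted p under 0.1. SE is the log2 fold change divided by the square root of F, and intervals are at 95%. CPM uses TMM-scaled totals. Samples were grouped by their titles. Exact permutation of 3 against 3 samples cannot go below p = 0.1, so single levels were not tested.

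The 10 members and the gene lists were chosen with earlier results of these data known, and lists carry no test. Named were Zfp335, the members, cell markers and, per pathway list, up to 3 called rises and 3 called falls with the largest change, averaging at least 5 CPM, without overlap between genotypes. Exceptions are stated. The promoter match of 1 gene is not reported here. Promoter windows and positions came from RefSeq GRCm38.p6, the assembly of mm10. Alternatives were DESeq2 1.42.0 (the study's test), RLE factors, library totals alone, no low-count filter, at least 10 counts in every sample, no fold threshold at adjusted p under 0.05, glmTreat, a replicate block, and leaving out each sample.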

Additional observations from a re-analysis of the deposited data

How the results depend on the processing

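Over all genes, glmTreat against a fold of 1.5 called 1686 genes (941 higher, 745 lower), and adjusted p under 0.05 with no fold threshold called 5244 (2610 higher, 2634 lower). With library totals alone, 1521 were higher and 1876 lower. Leaving out 1 sample gave 2867 to 3667 calls. Of the 10 genes, 3 to 7 were called when 1 sample was left out: 3 without WT replicate 1 or WT replicate 2, where Hspa5 was lost, and 7 without WT replicate 3. glmTreat called 3, again without Hspa5, and each other setting that kept all samples called 4. The sign of 3 genes that were not called turned: Ddit3 ranged from -0.26 to 0.014 with 1 sample left out, Dnajb9 from -0.43 to 0.59 and Trib3 from -0.0056 to 0.95, and Dnajb9 was 0.067 with the replicate block. Deviations of same-numbered samples from their group means correlated at 0.0735, 0.0279 and -0.000622, and not every sample correlated best with its own number, so the numbers were not taken as pairs. The replicate block called 3190 genes, 3100 of them shared with the fit without it, and changed no call among the 10 genes. The causes were not tested. The design gives 3 samples per genotype, WT replicate 3 stood apart, and genes such as Trib3 rest on low counts.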
